A study of Mus musculus with 6 samples.

Results

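Epithelial-mesenchymal transition (EMT) transcription factors were examined as a set of 10 genes taken by symbol from a gene expression table: Snai1, Snai2, Twist1, Twist2, Zeb1, Zeb2, Prrx1, Sox4, Sox9 and Foxc2. Of these, 9 matched 1 row each among the 19730 rows of the table, and Foxc2 was not analysed here. RNA-Seq had been performed on primary mouse mesangial cells, which are contractile support cells of the kidney glomerulus, in 3 Control libraries and 3 libraries of cells given TGF-β1. Per the labels, all cultures were kept in medium with high glucose (25.5 mM) and 20% fetal bovine serum at passage 3 to 6, and the TGF-β1 group received 10 ng/ml for 72 h. Strain, sex, age and the number of donor animals are not given in the sources used here. Nothing in the labels says that the libraries of a group came from separate cultures, so the p-values below measure only the spread between these libraries, which may be technical.

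In EMT, epithelial cells lose their junctions and polarity and take on a motile, matrix-producing state. Transcription factors of several families drive this switch. The SNAIL and ZEB zinc finger proteins bind the E2-box, CACCTG or its reverse complement CAGGTG, and repress epithelial genes such as E-cadherin. The TWIST proteins are basic helix-loop-helix factors that act as dimers with E proteins, and ID proteins capture those E proteins and block the dimers. PRRX1 is a paired-related homeobox protein of mesenchyme, SOX4 and SOX9 belong to the SRY-related HMG box family, and FOXC2 is a forkhead protein. Mesangial cells are counted as mesenchymal, so these genes are read here as regulators of a mesenchymal cell that responds to TGF-β1. A conversion from epithelium was not tested. Some epithelial or tubular genes were expressed in Control, such as Cdh16 (114 to 146 FPKM), while E-cadherin was at the edge of detection.

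Expression is given as FPKM, the number of sequenced fragments scaled to transcript length and to the mapped total of the library, so levels of different genes are compared per length. Depth recovered from the smallest FPKM steps was 10.1 to 11.1 M fragments per library. In TGF-β1 replicate 2 the deviation of a gene from its group mean fell with GC content (Spearman's rho across 10116 genes -0.391), while in TGF-β1 replicates 1 and 3 it rose (0.271 and 0.318). Deviations from a group mean offset each other, so opposite signs within a group are partly built in. In Control replicates 1, 2 and 3 rho was -0.0902, 0.0107 and 0.0984. Of the markers of mesangial cells, Pdgfrb (28.4 to 41.1 FPKM) and Acta2 were expressed in every library. Itga8, Thy1 and Des stayed at or below 0.55 FPKM. Pdgfrb was lower with TGF-β1 (mean 29.2 FPKM, against 37.5 FPKM in Control, limma adjusted p 0.0396), while Acta2 and Cnn1 were higher. The 8 mesangial markers together summed to 970 to 1150 FPKM in Control and 3770 to 4450 FPKM with TGF-β1, of which most was Acta2. Endothelial markers (5 with a row) summed to at most 0.822 FPKM in any library.

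TGF-β1 moved 6 of the 9 EMT factors, 3 in each direction. Snai1, Snai2 and Zeb2 were upregulated, and Prrx1, Twist2 and Sox4 were downregulated (limma, adjusted p under 0.05). Sox9, Twist1 and Zeb1 did not pass the test. Over all 11898 tested genes the same rule called 48.1% changed, 24.5% upwards and 23.6% downwards. FPKM ranges of the 2 groups did not overlap in 7 of the 9 factors, against 59.4% of all tested genes. The median change of the factors was 0.07 on the log2 scale, and that of all tested genes was -0.02. All 9 had passed the filter on low values (a mean of at least 1 FPKM over the 6 libraries), although Snai1 did so only through its level with TGF-β1 and Prrx1 only through its level in Control. In bulk RNA a change in the number of cells that express a gene and a change in the RNA of each cell cannot be told apart.

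**Figure D1:**
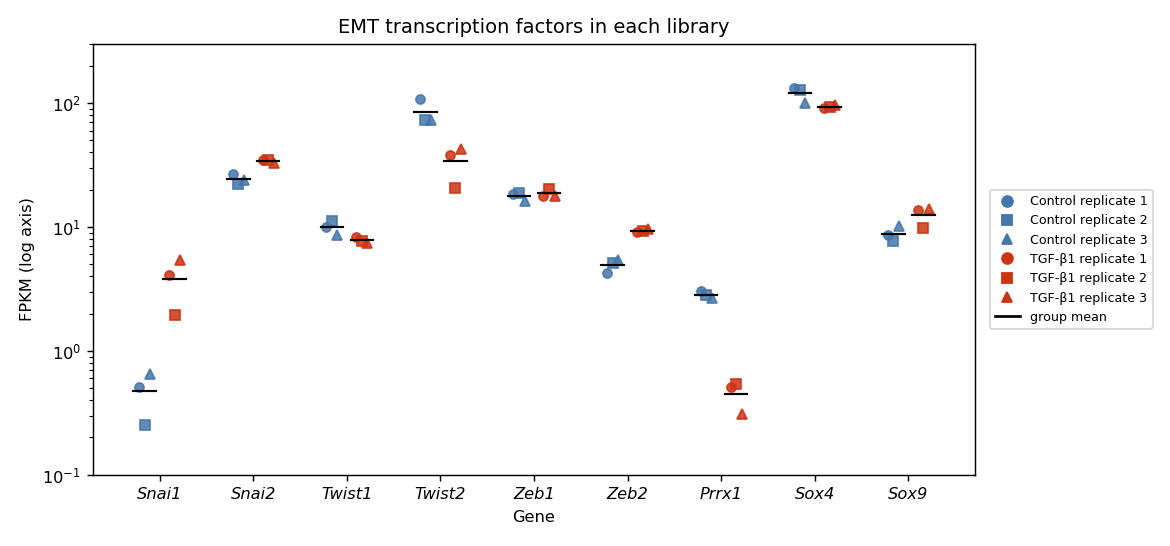
FPKM of each EMT transcription factor (log axis) in the 3 Control libraries (blue) and the 3 TGF-β1 libraries (red), with marker shape giving the replicate number and a black line the group mean. Snai1 and Prrx1 separate most, in opposite directions, and the replicate 2 squares of Snai1 lie lowest in both groups.

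The SNAIL genes both rose, from very different starting levels. Snai1 (mm9 chromosome 2, 167363695 to 167368314, plus strand) was listed at 0.507, 0.254 and 0.652 FPKM in Control replicates 1 to 3 and at 4.10, 1.95 and 5.39 FPKM in TGF-β1 replicates 1 to 3. The lowest treated library stood above the highest control library. Mean levels were 0.471 ± 0.201 and 3.81 ± 1.74 FPKM (SD, n = 3), a ratio of 8.09 and a change of 1.65 on the log2(FPKM + 1) scale (SE 0.298, limma adjusted p 0.00516). That scale understates the change of a gene this low. At the recovered depth the control values rest on about 8, 4 and 10 fragments and the treated values on about 64, 28 and 83. In both groups replicate 2 was the lowest library, at 0.439 and 0.410 of the mean of replicates 1 and 3. The Snai1 transcript has a GC content of 59.8%. Control replicate 2 had almost no trend with GC content across genes (rho 0.0107), and a part of GC content in the low values was not tested.

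Snai2, which encodes Slug, was already abundant. It was listed at 26.9, 22.3 and 23.9 FPKM in Control and at 34.8, 35.0 and 32.9 FPKM with TGF-β1 (chromosome 16, 14705945 to 14709488, plus strand). The ranges did not overlap and the treated libraries lay within a narrow band. Its increase was 1.40-fold (log2 change 0.48, SE 0.0902, limma adjusted p 0.00614). Slug transcript thus exceeded Snail transcript in every library, by 36.6 to 87.8 times in Control and by 6.11 to 18.0 times with TGF-β1.

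The sequence upstream of Snai1 is shown because it carries the motif that the SNAIL and ZEB proteins themselves bind, and that of Cdh1, the gene for E-cadherin, because it is the best known repressed target. Both are the 250 bases before the annotated start of the transcript in the table, read from the mm9 genome, with E2-box matches (CACCTG or CAGGTG, both strands) in capitals.
Snai1, chr2:167363445-167363694, plus strand: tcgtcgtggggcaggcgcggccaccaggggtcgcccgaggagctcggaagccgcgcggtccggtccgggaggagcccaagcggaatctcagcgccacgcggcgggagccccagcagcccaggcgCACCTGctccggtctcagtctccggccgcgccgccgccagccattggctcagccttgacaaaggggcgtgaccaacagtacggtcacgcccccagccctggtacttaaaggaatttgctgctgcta
Cdh1, chr8:109127001-109127250, plus strand: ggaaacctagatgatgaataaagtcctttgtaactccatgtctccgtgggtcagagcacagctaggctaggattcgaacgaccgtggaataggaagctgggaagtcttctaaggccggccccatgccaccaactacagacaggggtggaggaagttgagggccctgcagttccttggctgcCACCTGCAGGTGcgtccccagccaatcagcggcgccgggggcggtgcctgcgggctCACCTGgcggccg
Snai1 has 1 match, at positions -126 to -121 counted back from the start, and Cdh1 has 3, of which the first 2 are adjacent and form a palindrome. At least 1 E2-box match is present in 16.5% of the 14693 such regions of protein-coding genes in the table, and at least 3 matches are present in 41 of them (0.279%). Among the 9 EMT factors only Snai1 and Zeb1 had a match. For comparison, the half-site CAGACA or TGTCTG, which holds the CAGAC core that SMAD proteins bind, was found upstream of Twist1 and Sox4 (14.6% of all regions), and the AP-1 site TGACTCA or TGAGTCA upstream of Sox9 (3.36%). A match describes these letters only and shows no binding.

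Of the ZEB genes, Zeb2 rose and Zeb1 was not called. Zeb2 (chromosome 2, 44839154 to 44972915, minus strand) was listed at 4.25, 5.13 and 5.38 FPKM in Control and at 9.14, 9.35 and 9.60 FPKM with TGF-β1. Every treated library was above every control library, and replicate 2 lay in the middle of both groups. The increase was 1.90-fold (log2 change 0.81, SE 0.101, limma adjusted p 0.00114). Zeb2 has the lowest GC content of the set, 40.1%, and the longest transcript, 9113 nt.

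Zeb1 (chromosome 18, 5591858 to 5775465, plus strand) was listed at 18.4, 18.8 and 16.3 FPKM in Control and at 17.9, 20.3 and 17.9 FPKM with TGF-β1. Its groups overlapped, and the log2 change of 0.07 (SE 0.0927, limma adjusted p 0.582) was smaller than its error. When libraries were rescaled to a common sum of protein-coding rows, which moved the median of all genes by -0.17, the sign of Zeb1 turned to -0.12, and with a trend in GC content removed it was -0.03. Both ZEB genes are overlapped by genes on the opposite strand. Gm10125, opposite Zeb1, was listed at 6.71 to 8.23 FPKM in Control and 2.61 to 3.32 FPKM with TGF-β1, and Gm13476, opposite Zeb2, at 1.87 to 1.93 and 0.989 to 1.25 FPKM. Whether the FPKM estimate used read strand is not stated, so reads of these partners cannot be told apart with certainty.

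The TWIST genes both had lower means with TGF-β1, and only the decrease of Twist2 passed the test. Twist2 (chromosome 1, 93698038 to 93744605, plus strand) was among the more abundant factors, at 108, 72.5 and 72.7 FPKM in Control, and was listed at 38.2, 20.5 and 42.9 FPKM with TGF-β1. The highest treated library stayed below the lowest control library. Control exceeded TGF-β1 by 2.49-fold (log2 change -1.33, SE 0.302, limma adjusted p 0.0123). TGF-β1 replicate 2 was at 0.505 of the mean of the other 2 treated libraries, and the GC content of the transcript is 57.4%. Without that library the log2 change was -1.01 and still called (limma adjusted p 0.0121), and over the fits that left out 1 library the adjusted p was at most 0.0402.

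Twist1 (chromosome 12, 34642536 to 34644682, plus strand), which carries out overlapping functions with Twist2 in mesenchyme, was listed at 9.99, 11.2 and 8.58 FPKM in Control and at 8.36, 7.68 and 7.49 FPKM with TGF-β1. The groups came close but did not overlap. The log2 change of -0.30 (SE 0.111) had a limma adjusted p of 0.0685. It passed at 0.0263 without Control replicate 3. Its GC content, 59.7%, is nearly that of Snai1, yet replicate 2 was not low for this gene (1.2 times the mean of the other libraries in Control and 0.968 times with TGF-β1).

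Prrx1, a homeobox gene of mesenchymal precursors, had the smallest adjusted p of the set. It was listed at 3.02, 2.85 and 2.65 FPKM in Control and at 0.509, 0.537 and 0.308 FPKM with TGF-β1 (chromosome 1, 165175247 to 165243841, minus strand). The treated libraries were all far below the controls, and the libraries of each group lay close together. Control exceeded TGF-β1 by 6.29-fold (log2 change -1.41, SE 0.124, limma adjusted p 2.85e-04), and the treated values rest on about 27, 26 and 16 fragments. Prrx1 overlaps Gm20471 on the opposite strand and Gm17698 on its own strand, and no level was available for either. In the annotation 5 transcripts belong to Prrx1, and the table holds a row for 1 of them. Zeb1 (8 transcripts), Zeb2 (11), Sox4 (3) and Sox9 (2) likewise have 1 row each. Whether such a row covers the whole gene was not tested, which also limits the order of levels and the ratios below.

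Of the 2 SOX genes, Sox4 fell by a small amount and Sox9 was not called. Sox4 (chromosome 13, 29040788 to 29045582, minus strand), an HMG box factor known as a TGF-β target in epithelial cells, was the most abundant factor. It was listed at 133, 128 and 101 FPKM in Control and at 91.5, 92.5 and 95.8 FPKM with TGF-β1. Control replicate 3 lay much nearer to the treated libraries than the other controls did. The log2 change was -0.36 (SE 0.117, limma adjusted p 0.0435), and this call was lost in 11 of 20 alternatives, among them 5 of the 6 fits that left out 1 library (adjusted p up to 0.122, all except that without Control replicate 3). Sox4 overlaps Gm17419 on the opposite strand.

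Sox9 (chromosome 11, 112643538 to 112649074, plus strand), a regulator of cartilage matrix genes that is also induced in injured kidney tubules, was listed at 8.58, 7.76 and 10.1 FPKM in Control and at 13.7, 9.81 and 14.1 FPKM with TGF-β1. TGF-β1 replicate 2 fell within the range of the controls. Its log2 change was 0.45 (SE 0.160) with a limma adjusted p of 0.0571. It passed in 6 of 20 alternatives, among them the fit without TGF-β1 replicate 2 (0.0139).

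**Figure D2:**
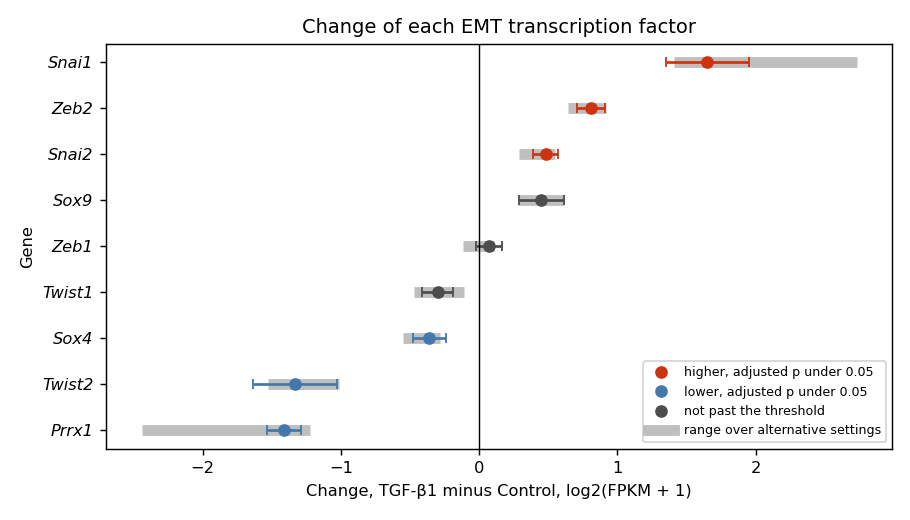
Change of each factor (TGF-β1 minus Control, log2(FPKM + 1)), with the SE as a bar and the range over the alternative settings in grey. Snai1, Zeb2, Snai2, Prrx1 and Twist2 keep their side of 0 over the whole grey range, as do Sox4, Sox9 and Twist1, and Zeb1 (0.07) spans 0.

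Replicate 2 touched the factors unequally. In the TGF-β1 group, replicate 2 was the lowest library for Sox9, Twist2 and Snai1 and the highest for Prrx1, Snai2 and Zeb1. In Control it was the lowest for Snai2, Sox9, Twist2 and Snai1 and the highest for Zeb1 and Twist1. For Twist2 in Control it was nearly level with replicate 3 (72.5 and 72.7 FPKM). Sox9, Twist2 and Snai1 were lowest in replicate 2 in both groups, at 0.410 to 0.833 of the mean of the other libraries. When replicate 2 was fitted as a batch, and when it was left out of both groups, Snai1, Snai2, Zeb2, Twist2 and Prrx1 were still called in the same direction.

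**Figure D3:**
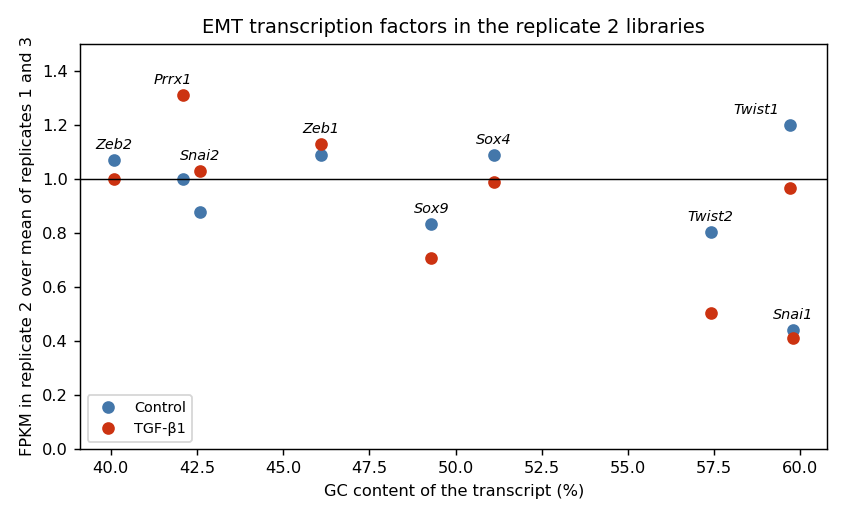
FPKM in replicate 2 divided by the mean of replicates 1 and 3 of the same group, against the GC content of the transcript in percent, for each factor in Control (blue) and TGF-β1 (red). Points for Zeb2 at 40.1% GC lie near 1 (1.07 and 0.998), those of Snai1 at 59.8% lie at 0.439 and 0.410, and Twist1 at 59.7% (1.2 and 0.968) departs from the other GC-rich genes.

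The order of levels was compared between the groups. In Control it ran Sox4, Twist2, Snai2, Zeb1, Twist1, Sox9, Zeb2, Prrx1 and Snai1, from a mean of 121 down to 0.471 FPKM. Sox4 and Twist2 overlapped in range, as did Twist1 and Sox9, and no other neighbours did. With TGF-β1 it ran Sox4, Snai2, Twist2, Zeb1, Sox9, Zeb2, Twist1, Snai1 and Prrx1, from 93.3 down to 0.451 FPKM, and only Snai2 (34.2 FPKM) and Twist2 (33.9 FPKM) overlapped. Snai1 and Prrx1 exchanged the last places. Zeb2 and Sox9 stood below Twist1 in mean in Control and above it in every treated library.

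Related factors were then set against each other within each library, which asks whether the 2 members of a family changed unequally. In Control, Snai2 exceeded Snai1 by 59.1 ± 26.1 times (mean ± SD of 3 libraries), and in treated cells by 10.8 ± 6.27 times. Twist2 exceeded Twist1 by 8.58 ± 2.14 times in Control and 4.32 ± 1.54 times with TGF-β1. Zeb1 exceeded Zeb2 by 3.67 ± 0.648 times and then 2.0 ± 0.153 times, and Sox4 exceeded Sox9 by 14 ± 3.44 and 7.65 ± 1.54 times. In all 4 pairs the groups did not overlap. Single genes did not overlap in 59.4% of all tested genes, and the share for ratios of gene pairs was not computed. In all 4 the factor that was scarcer in Control took a larger share of its pair after treatment. Which factor was scarcer was read from the same Control values, so this common direction is a description. Differences in log2(FPKM + 1) change were 1.17 for Snai1 minus Snai2 (SE 0.367), 1.03 for Twist1 minus Twist2 (SE 0.376), -0.74 for Zeb1 minus Zeb2 (SE 0.142) and -0.81 for Sox4 minus Sox9 (SE 0.257). An exact permutation test (two-sided) returned p = 0.1 for every one of the 4 pairs, also after adjustment over the 4, which is the smallest value that 3 against 3 libraries allow.

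**Figure D4:**
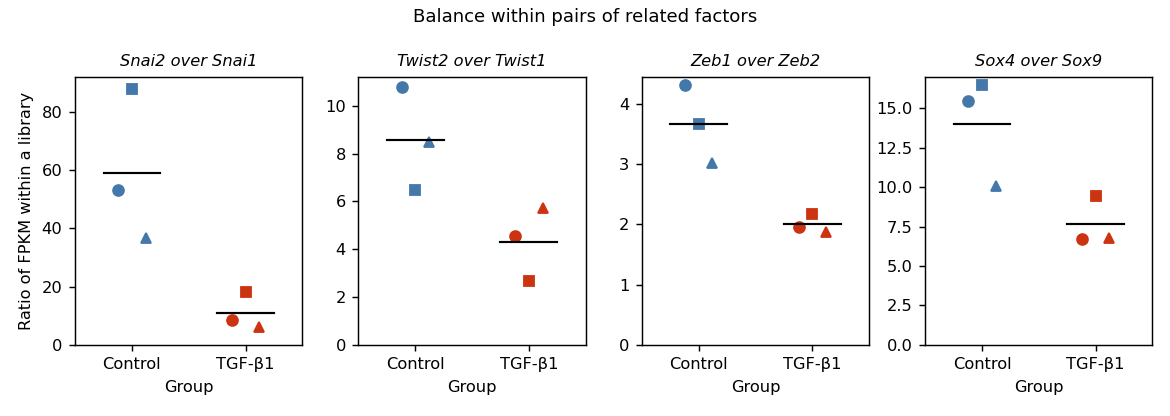
Ratio of FPKM within each library for 4 pairs of related factors, with marker shape giving the replicate number (1 circle, 2 square, 3 triangle) and a black line the mean. Every TGF-β1 value lies below every Control value, most widely for Snai2 over Snai1 (36.6 to 87.8 against 6.11 to 18.0).

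Genes that act with, beside or downstream of the EMT factors were taken from lists and described by their counts. For every list the share to set beside these counts is that of all tested genes, 48.1% called, 24.5% upwards and 23.6% downwards. Relatives of the factors were all called where tested (6 tested, 2 up and 4 down, median log2 change -0.70). With no filter on low values, 7 of the 10 relatives with a row were called. Foxc1, the closest relative of Foxc2, was listed at 50.3, 44.2 and 50.8 FPKM in Control and at 15.6, 17.1 and 14.8 FPKM with TGF-β1 (log2 change -1.55, limma adjusted p 7.06e-05). Prrx2, the paralog of Prrx1, fell as well, from 18.4 ± 1.65 to 7.81 ± 0.852 FPKM (limma adjusted p 4.03e-04). Sox8, a close relative of Sox9, rose from 1.44 ± 0.212 to 9.89 ± 2.30 FPKM (limma adjusted p 2.35e-04), and Sox11, of the same subgroup as Sox4, from 0.904 ± 0.0798 to 2.83 ± 0.725 FPKM (limma adjusted p 0.00376). Sox12, also of the Sox4 subgroup, fell from 8.82 ± 0.648 to 6.15 ± 0.35 FPKM (limma adjusted p 0.00724) and was named after its values were seen. Prrx1 and Prrx2 thus both fell, whereas of the Sox4 relatives Sox11 rose and Sox12 fell. Sox11 passed the filter on low values only through its level with TGF-β1.

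Dimer partners of TWIST and their inhibitors included 6 tested genes, of which 1 rose and 1 fell (median -0.38). Id2, which sequesters E proteins, was listed at 95.6, 87.7 and 93.6 FPKM in Control and at 15.6, 15.2 and 16.9 FPKM with TGF-β1 (log2 change -2.47, limma adjusted p 8.43e-06). Tcf12, the E protein HEB, rose from 23.2 ± 0.0337 to 28.8 ± 2.0 FPKM (limma adjusted p 0.0206), a call that was lost in 7 of 20 alternatives. Id3 had a lower mean with TGF-β1 (25.2 ± 16.5 against 56.4 ± 23.4 FPKM) but overlapping groups and was not called (limma adjusted p 0.137). Among corepressors and genes of Snail protein turnover, 12 were tested, 4 rose and 1 fell (median 0.11). Fbxw7, a subunit that directs proteins to degradation, was listed at 10.4, 10.3 and 8.26 FPKM in Control and at 19.1, 19.9 and 19.3 FPKM with TGF-β1 (limma adjusted p 6.64e-04). Btrc, which encodes the β-TrCP subunit that recognises phosphorylated Snail, fell from 5.96 ± 0.501 to 4.29 ± 0.418 FPKM (limma adjusted p 0.0219), and Hdac2 rose by 0.39 on the log2 scale. The calls of Hdac2 and Btrc were lost in 14 and 6 of 20 alternatives.

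The TGF-β and SMAD genes upstream of the factors were mostly called (14 tested, 7 up and 4 down, median 0.38). Skil, a feedback repressor of SMAD signalling, was listed at 2.53, 2.56 and 2.16 FPKM in Control and at 19.5, 18.0 and 17.2 FPKM with TGF-β1 (log2 change 2.49). Tgfbr3, the coreceptor betaglycan, fell from 8.83 ± 0.911 to 1.26 ± 0.141 FPKM (log2 change -2.12), and Tgfbr1 from 9.62 ± 1.37 to 6.32 ± 0.366 FPKM (log2 change -0.53). Smad7, an inhibitory SMAD, rose by 1.66 on the log2 scale. Limma adjusted p-values of these 4 genes were at most 0.01.

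**Figure D5:**
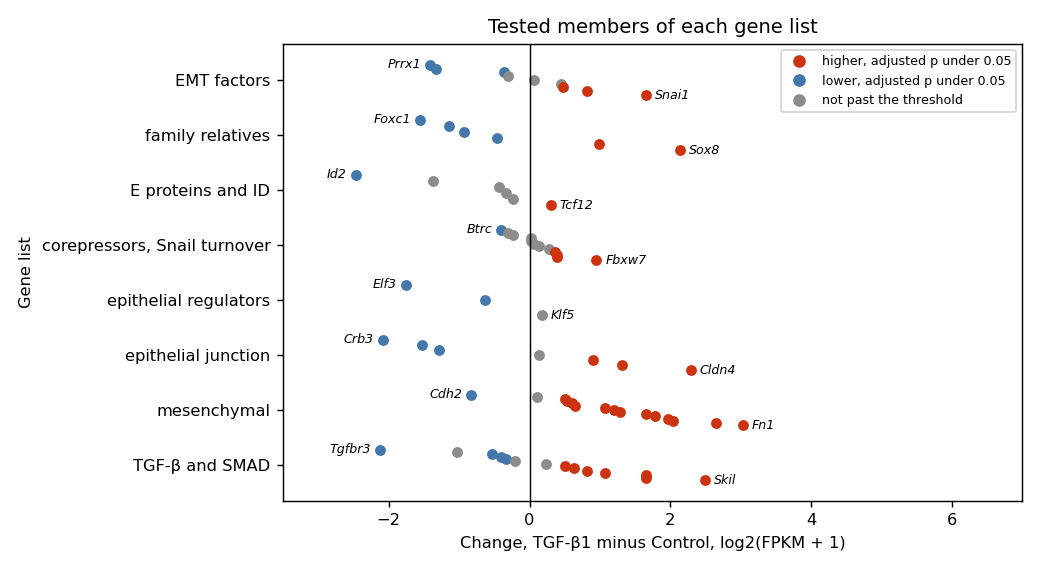
Change of every tested gene of each list (TGF-β1 minus Control, log2(FPKM + 1)), red where higher and blue where lower at an adjusted p under 0.05 and grey otherwise, with the lowest and highest gene of each list named. The mesenchymal list lies to the right of 0 except for Cdh2 (-0.83), while the EMT factors and the epithelial junction genes spread to both sides.

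Mesenchymal targets were upregulated in 13 of 15 tested genes, with 1 decrease and a median of 1.2. Col1a2, among the 13, passed the filter on low values only through its level with TGF-β1. Its call was lost in 5 of 18 alternatives. Fn1, fibronectin, was listed at 343, 356 and 459 FPKM in Control and at 3160, 3220 and 3020 FPKM with TGF-β1 (log2 change 3.03). Itga5, a subunit of the fibronectin receptor, rose by 2.65 on the log2 scale. Limma adjusted p-values were 2.55e-05 for Fn1 and 1.47e-05 for Itga5. The 1 gene of this list that fell was Cdh2, which encodes N-cadherin, the cadherin gained in classical EMT. Cdh2 was listed at 106, 109 and 127 FPKM in Control and at 62.8, 67.1 and 61.6 FPKM with TGF-β1, so that every treated library lay below every control library (log2 change -0.83, SE 0.0938, limma adjusted p 7.81e-04).

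Epithelial junction genes went both ways, and Cdh1 itself was at the edge of detection in all 6 libraries. Cdh1 was listed at 0, 0.0214 and 0.0309 FPKM in Control and at 0.0216, 0.0467 and 0.123 FPKM with TGF-β1, which corresponds to 0 to 6 fragments. In the fit without the filter it was not called (limma adjusted p 0.393), and a decrease from this level could not have been detected at this depth. Of the 7 tested junction genes 3 rose and 3 fell (median 0.13). In the fit without the filter 2 keratin genes of this list also rose. Krt18 went from 0.279 ± 0.12 to 1.57 ± 0.219 FPKM (limma adjusted p 0.00143). Krt19 went from 0.156 ± 0.15 to 1.06 ± 0.233 FPKM (limma adjusted p 0.00563). The other junction genes under the filter were not called. Cldn4, a claudin of tight junctions, was listed at 0.0561, 0.281 and 0.231 FPKM in Control and at 5.72, 3.62 and 5.22 FPKM with TGF-β1 (log2 change 2.29, limma adjusted p 1.89e-04). Jup, plakoglobin, rose by 1.31, although its row names a processed transcript and not a protein-coding one. Crb3, an apical polarity gene known as a target of ZEB and SNAIL repression, was listed at 8.06, 5.85 and 8.23 FPKM in Control and at 1.06, 0.343 and 1.76 FPKM with TGF-β1 (log2 change -2.08, limma adjusted p 0.00155). Muc1, an apical mucin, averaged 3.02 ± 1.26 FPKM in Control and 0.349 ± 0.153 FPKM in treated cells (a change of -1.53, limma adjusted p 0.00361). Cldn4 passed the filter on low values only through its level with TGF-β1, and Muc1 only through its level in Control.

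An E2-box match was present upstream of 7 of the 12 junction genes for which the region could be read, and these genes were listed because several are known targets, so the count is a description. Muc1, which fell, and Cldn4, which rose, are shown because both have such a match and moved in opposite directions. They were chosen after their values were seen.
Muc1, chr3:89032729-89032978, plus strand: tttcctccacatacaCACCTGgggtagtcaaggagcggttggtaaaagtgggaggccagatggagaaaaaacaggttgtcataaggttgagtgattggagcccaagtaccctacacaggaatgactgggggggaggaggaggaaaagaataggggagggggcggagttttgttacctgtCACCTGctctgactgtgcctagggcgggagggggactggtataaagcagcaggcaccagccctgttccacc
Cldn4, chr5:135422805-135423054, minus strand: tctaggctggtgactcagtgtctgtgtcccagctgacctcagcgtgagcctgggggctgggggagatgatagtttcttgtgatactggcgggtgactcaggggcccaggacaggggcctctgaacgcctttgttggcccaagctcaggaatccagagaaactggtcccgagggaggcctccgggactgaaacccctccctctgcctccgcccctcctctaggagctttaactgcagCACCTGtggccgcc
The 2 matches of Muc1 begin at positions -235 and -71, and that of Cldn4 begins at -14. Crb3, with the largest decrease of the list, had no match in its 250 bases.

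Of 10 genes known to hold cells in an epithelial state, transcription factors and the splicing regulators Esrp1 and Esrp2, 6 had a row and 3 were tested, and 2 fell and 0 rose (median -0.63). Elf3, an epithelium-specific ETS factor, was listed at 3.06, 4.57 and 4.17 FPKM in Control and at 0.304, 0.439 and 0.615 FPKM with TGF-β1 (log2 change -1.76, limma adjusted p 3.60e-04). Klf4 fell from 14.2 ± 1.24 to 8.87 ± 1.12 FPKM (limma adjusted p 0.00556). Markers of other cell types moved beside these epithelial genes. Of the 6 tubular markers 4 had a row, and their summed level was 115 to 148 FPKM in Control and 6.25 to 7.62 FPKM with TGF-β1. Nearly all of it was Cdh16, the kidney-specific cadherin, listed at 114, 146 and 129 FPKM in Control and 6.28, 6.87 and 5.75 FPKM with TGF-β1, while Aqp2 was listed at 0 in all libraries except TGF-β1 replicate 1. In the fit without the filter Lrp2, the endocytic receptor megalin, fell from 1.43 ± 0.443 to 0.23 ± 0.0167 FPKM (limma adjusted p 0.00369), and Slc12a1 rose from 0.0615 ± 0.035 to 0.377 ± 0.118 FPKM (limma adjusted p 0.0125). Macrophage markers (5 with a row) summed to 87.0 to 114 FPKM in Control and 9.03 to 11.3 FPKM with TGF-β1, mainly as Cd14. Csf1r, the receptor for macrophage colony-stimulating factor, was listed at 5.9, 7.37 and 5.52 FPKM in Control and at 0.476, 0.234 and 0.525 FPKM with TGF-β1 (limma adjusted p 8.56e-05), Cd68 was not called, and Ptprc, the defining leukocyte gene, was listed at 0 in every Control library. Elf3 and Csf1r passed the filter on low values only through their levels in Control. The 4 podocyte markers with a row summed to 13.8 to 15.4 and 8.51 to 10.1 FPKM. The part of such cells in the changes of Elf3, Crb3, Muc1 and the EMT factors was not tested.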

How the data were processed

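RNA-Seq of 3 Control and 3 TGF-β1 libraries of primary mouse mesangial cells was analysed. Reads of low quality were discarded, and the authors aligned the others to mouse build mm9 with TopHat (TopHat2 2.0.11 in the submitters' processing notes), and Cufflinks gave the deposited FPKM values, 1 column for each library. Any further normalization is not given in the sources used here. The authors tested counts with DESeq, and counts were not used here, so that test was not repeated. Groups came from the labels.

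Members and gene lists were chosen with earlier results of these data known. Named genes were all members and, of each list, up to 2 with the largest called increase and up to 2 with the largest called decrease, plus Cdh1, Cdh2 and marker genes. Id3, Sox12, Krt18, Krt19, Col1a2 and the overlapping genes that are named were chosen after their values were seen. Of the mesenchymal list, 1 gene is not reported here and was left out of its counts.

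All rows with a mean of at least 1 FPKM (11898 of 19730) were fitted with limma 3.58.1 in R 4.3.3 (eBayes with trend) on log2(FPKM + 1). Tests were two-sided and p-values were adjusted by the Benjamini-Hochberg method over these rows. A change was called at an adjusted p under 0.05. Genes under the filter came from a fit without it. The fit was tested on simulated data. Depth was estimated for transcripts of single-transcript genes by matching low FPKM values to whole fragments, assuming fragments of 200 nt. At least 99.4% of values per library came within 0.1 of a whole number. Coordinates (1-based), GC content and upstream sequence came from mm9 and GENCODE M1. Tables and figures were made in Python 3.11.15 (pandas 2.3.3, matplotlib 3.10.9) and exact tests with scipy 1.17.1. Alternatives covered pseudocounts, filters, scaling, trend, replicate 2, GC content, threshold and leaving out each library.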

Additional observations from a re-analysis of the deposited data

How the results depend on the processing

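Of 178 recomputed changes of single factors, 156 kept their direction and their side of the threshold, and the 32 differences between paired factors kept their direction. Filters, the eBayes trend, replicate terms and the threshold cannot alter the estimated change, so there only the side of the threshold could move. The replicate block likewise leaves a paired difference as it was. In every pair the groups did not overlap, so leaving out 1 library could not reverse the direction. Only the smaller pseudocount could have done so. Of 160 recomputed counts of called genes, 141 stayed within 1.5 times the main count. Alternatives chosen after the data were seen were a restriction to protein-coding transcripts no shorter than 300 nt, rescaling to a common protein-coding sum, and removal of the trend with GC content. Snai1, Snai2, Zeb2 and Prrx1 kept their calls in every alternative in which they were tested (Snai1 and Prrx1 were not tested at a mean of at least 3 FPKM), and no called gene of the other lists reversed.

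The Sox4 call was lost with no filter (-0.36), without the eBayes trend (-0.36), with the replicate 2 batch term (-0.36), within replicates 1 and 3 (-0.31) and at an adjusted p under 0.01 (-0.36), where Twist2 (-1.33) was also not called, by construction of the stricter threshold. Sox9 passed under quantile normalization (0.49), with the batch term (0.45), within replicates 1 and 3 (0.53) and among protein-coding rows (0.45). Twist1 passed after rescaling (-0.47). Zeb1 turned negative after rescaling (-0.12) and with the GC trend removed (-0.03). The causes were not tested.

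The fits that left out 1 library gave -0.28 to -0.48 for Sox4, 0.37 to 0.61 for Sox9, -0.22 to -0.39 for Twist1, 1 to 3 called genes among dimer partners and ID genes, and 2 to 4 among corepressors and Snail turnover genes.

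The corepressor and turnover count of 5 was 3 with no filter, under quantile normalization and with the GC trend removed, 2 after rescaling, and 1 within replicates 1 and 3 and at the stricter threshold. The dimer partner count of 2 was 4 with the batch term and 1 within replicates 1 and 3 and at the stricter threshold, and that of epithelial regulators was 1 instead of 2 at a mean of at least 3 FPKM.

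Replicate numbers are shared between groups. Deviations from the group means correlated across genes at 0.0921, 0.232 and 0.0853 for same-numbered libraries. For libraries of different number they correlated at -0.194 to 0.117. The main fit did not pair the libraries, and whether the numbers mark pairs was not settled. With the replicate block Sox4 was not called (-0.36), Sox9 was (0.45), and 3 corepressor and turnover genes were called. Among the factors depth limits Snai1 most, at 4 to 10 fragments in Control, and it leaves Cdh1 at 0 to 6.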
